A study of Mus musculus with 7 samples.

Results

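The genes described here are the 36 aminoacyl-tRNA synthetases listed by symbol, 20 cytosolic and 16 mitochondrial, out of the 17920 genes of the deposited expression table. The rule uses gene symbols: those ending in 2 are the mitochondrial enzymes. All 36 were found in the table, and all 36 passed the filter on low values (a mean of at least 1 FPKM over the 7 libraries). RNA was measured in whole spleen, labelled splenocytes, of C57BL/6 mice aged 8 weeks, each library being 1 mouse. Every mouse had received 20 mg/kg lipopolysaccharide (LPS), a bacterial cell wall component, into the peritoneum. The 4 groups were wild type at 90 min (2 libraries), GdX-/- at 90 min (2), wild type at 6 h (2) and GdX-/- at 6 h (1). The treatment text writes the second genotype as GdX-/Y. Mice without LPS were not analysed here, so every change with time is from 90 min to 6 h and not from rest.

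Aminoacyl-tRNA synthetases join each amino acid to its tRNA, the step that supplies the ribosome with charged tRNA. Cytosolic protein synthesis and mitochondrial protein synthesis mostly use enzymes encoded by separate nuclear genes, while Kars and Gars each encode both the cytosolic and the mitochondrial enzyme. Many cytosolic synthetase genes are known targets of ATF4, the transcription factor whose translation rises when eIF2alpha is phosphorylated under amino acid shortage or endoplasmic reticulum stress. Wars, the tryptophan enzyme, is in addition a known interferon gamma target. Several cytosolic enzymes sit together in the multisynthetase complex, held by the scaffold proteins Aimp1, Aimp2 and Eef1e1. GdX, the product of the X-linked gene Ubl4a, is a ubiquitin-like protein of a complex that handles tail-anchored membrane proteins.

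The depth read from the steps between low FPKM values was estimated at 18393800 to 20426600 mapped fragments per library. FPKM (fragments per kilobase of transcript, scaled by the number mapped) is per length, so levels can be compared between genes. Globin genes took 7.73% to 30.9% of a library's FPKM sum. In whole spleen, fewer cells of a type and less RNA per cell cannot be told apart. Ubl4a itself was listed at 4.03 and 5.69 FPKM in the GdX-deficient libraries at 90 min against 5.62 and 7.5 in wild type, and at 6 h it was at 10.6 against 11.9 and 14.0. It did not separate the genotypes by the limma test (adjusted p = 0.662 at 90 min and 0.656 at 6 h). The entry Gm44504, which overlaps Ubl4a, did follow the labels: it was at 0.66 to 1.86 FPKM in the 3 GdX-deficient libraries and at 14.5 to 51.1 in the 4 wild-type libraries.

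Promoter sequence was read for the element that ATF4 and C/EBP proteins are known to bind together. The 300-base RefSeq promoters of build GRCm38.p6 (250 bases before to 50 after the start) were searched on both strands for TGATGNAA, whose reverse is TTNCATCA. It was found in 1219 of 27025 genes with a promoter entry (4.51%). Of the 20 cytosolic synthetases 13 had an entry and 5 of these held the motif (38.5%, exact 95% binomial interval 13.9% to 68.4%), namely Aars, Gars, Iars, Tars and Yars. None of the 14 mitochondrial synthetases with an entry did (0 of 14, upper limit 23.2%), and 9 of 26 ATF4 list genes did (34.6%). The full core TGATGCAA was in 4 of the 13 cytosolic promoters and in 1.03% of all. The stretches below, on the gene's strand, show the match in capitals in the 3 genes where it lies before the start, 112 bases before it in Aars (chr8:111033704-111033763), 30 in Gars (chr6:55037945-55038000) and 15 in Tars (chr15:11399659-11399699, minus strand). They are shown because these 3 genes are among the cytosolic synthetases whose levels changed with time, described further on. The starts used here are those of RefSeq. GENCODE annotation begins Aars earlier, at chr8:111033144, so the Aars stretch lies inside that annotated gene.
Aars: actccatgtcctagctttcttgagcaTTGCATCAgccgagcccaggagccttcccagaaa
Gars: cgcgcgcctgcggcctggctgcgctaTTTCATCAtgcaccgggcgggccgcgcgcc
Tars: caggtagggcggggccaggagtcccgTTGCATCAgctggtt

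Cytosolic synthetase transcripts were more abundant than mitochondrial ones in every library. The cytosolic enzymes had a median between 24.2 FPKM in a GdX-deficient library at 90 min and 98.8 FPKM in a wild-type library at 6 h. For the mitochondrial enzymes the median lay between 5.70 and 9.89 FPKM. Vars, the valine enzyme, was the highest cytosolic transcript in all 4 libraries at 90 min, with 67.2 and 111 FPKM in wild type and 114 and 120 in GdX-deficient spleen. It also led the GdX-deficient library at 6 h with 132 FPKM. In the wild-type libraries at 6 h it was overtaken, by Eprs (177 FPKM) in the first and by Nars (217 FPKM) in the second. Tars2, the mitochondrial threonine enzyme, led its class at 90 min with 14.9 to 17.7 FPKM, and Pars2, the mitochondrial proline enzyme, was the lowest in both wild-type libraries at 90 min with 1.38 and 2.25 FPKM. The lowest library of each cytosolic gene still rested on an estimated 616 (Iars) to 5472 (Vars) fragments, and that of each mitochondrial gene on 71 (Pars2) to 736 (Tars2), so the mitochondrial values carry more counting error.

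**Figure D1:**
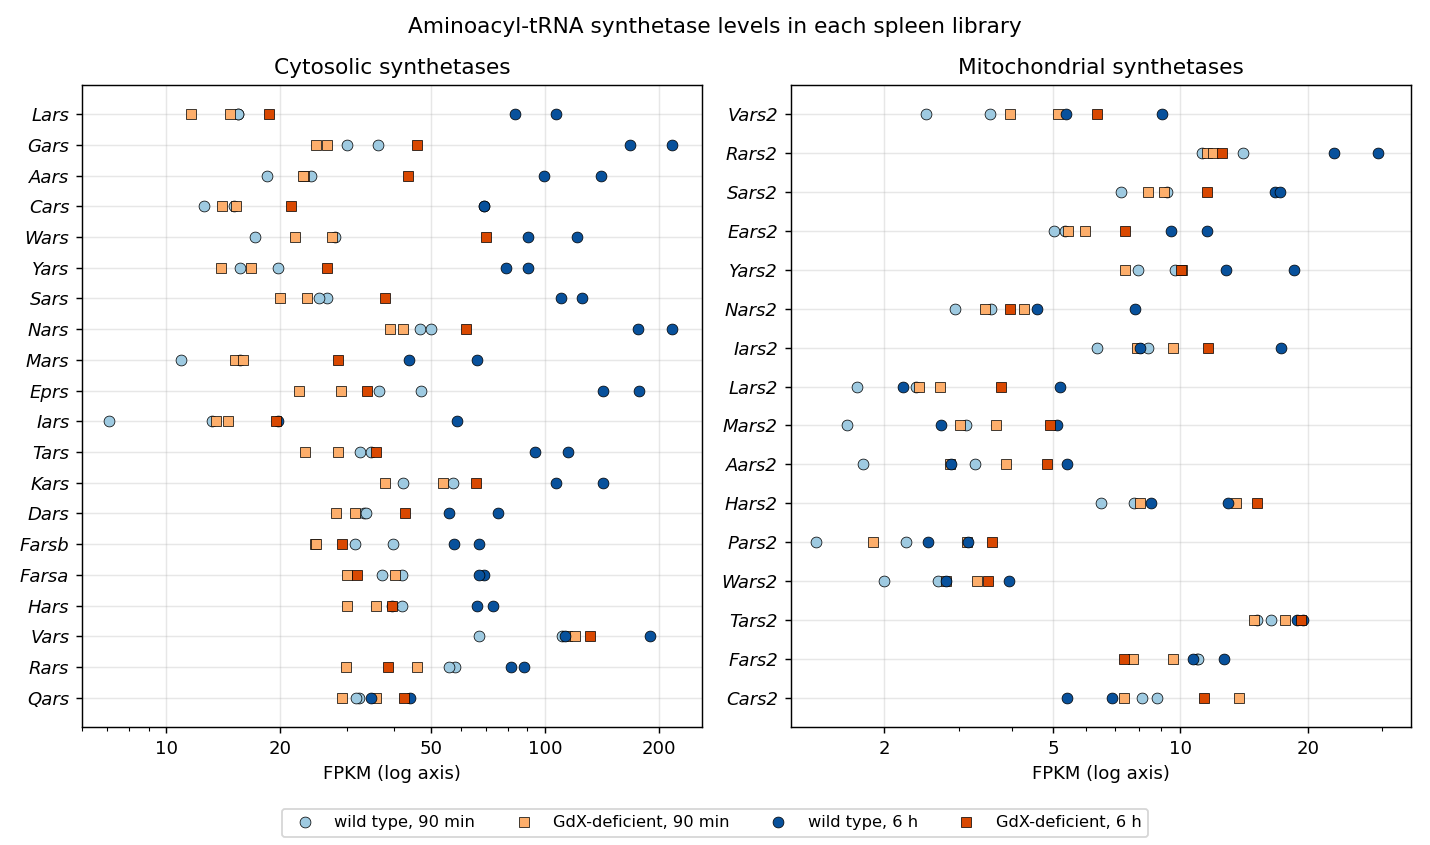
Level of each synthetase transcript in each of the 7 libraries (x axis: FPKM, log axis, with a different range in each panel; left: 20 cytosolic genes, right: 16 mitochondrial genes; circles are wild type, squares GdX-deficient, light at 90 min and dark at 6 h). The dark circles of the wild-type libraries at 6 h lie to the right of the light circles for all 20 cytosolic genes, and the dark square of the GdX-deficient library lies left of both dark circles for 18 of them.

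The summed FPKM of the 20 cytosolic enzymes was 632 and 717 in wild type at 90 min and 1833 and 2179 at 6 h, a 2.98-fold difference of the means. The 16 mitochondrial enzymes summed to 96.1 and 108 at 90 min and 147 and 175 at 6 h, a 1.58-fold difference. The ratio of the sums was 6.57 and 6.62 at 90 min and 12.5 and 12.4 at 6 h, so the wild-type libraries lay close together within a time and far apart between times. In GdX-deficient spleen the cytosolic sum was 644 and 589 at 90 min and 865 at 6 h, a 1.40-fold difference, and the mitochondrial sum was 104 and 123, then 137, a 1.21-fold difference. The GdX-deficient ratio at 6 h, 6.30, was above the 6.21 and 4.79 found at 90 min and below both wild-type values at 6 h.

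Between 90 min and 6 h in wild type, 14 of the 20 cytosolic synthetases rose and none fell (limma on log2(FPKM + 1), Benjamini-Hochberg adjusted p under 0.05 over 11378 genes). Of all genes tested, 4.39% were called higher in that comparison. The median cytosolic change was 1.82 on the log2 scale, beside 0.0516 over all genes. All 20 were higher in both libraries at 6 h than in both at 90 min, beside 30.3% of all genes. As a ratio of group means the increase ran from 1.23-fold for Qars to 6.15-fold for Lars, with a median of 3.85-fold. Of the 14 calls, 11 held in each of the 15 alternative analyses, and Kars, Dars and Iars did not. Kars passed in 11 of the 15, and Dars and Iars in 5 each. Kars lost its call under 3 processing choices and without the first wild-type library at 90 min (adjusted p = 0.155). Dars lost its call under several processing choices and without either GdX-deficient library at 90 min, either wild-type library at 90 min or the second wild-type library at 6 h (up to adjusted p = 0.266). Iars lost its call likewise, apart from the second wild-type library at 90 min (up to adjusted p = 0.163).

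Gars (Entrez 353172, GRCm38 chr6:55038007-55079500, plus strand), the glycine enzyme, was listed at 30.1 and 36.2 FPKM at 90 min and at 167 and 216 at 6 h in wild type. Its log2 change was 2.49 (SE 0.25, adjusted p = 0.00131). Lars (Entrez 107045), the leucine enzyme of the multisynthetase complex, went from 15.5 in both libraries to 83.6 and 107, a log2 change of 2.54 (SE 0.27, adjusted p = 0.00143). Each of these genes had its later libraries several-fold above its earlier ones, with no overlap. Aars (Entrez 234734, chr8:111033144-111057664, plus strand), the alanine enzyme, went from 18.4 and 24.1 FPKM to 99.4 and 141, a log2 change of 2.43 (SE 0.28, adjusted p = 0.00197). Its exons share 1326 bases with Exosc6 on the same strand, so reads from the shared stretch are uncertain. Cars (Entrez 27267, chr7:143557230-143600090, minus strand), the cysteine enzyme, was at 12.6 and 15.1 FPKM and then at 69.2 and 69.1, a log2 change of 2.25 (SE 0.25, adjusted p = 0.00197).

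Sars, Yars, Nars, Wars, Eprs and Mars made up the rest of the 10 cytosolic genes with the smallest p-values. Sars, the serine enzyme, was at 26.7 and 25.3 FPKM at 90 min and at 125 and 110 at 6 h (log2 change 2.13, SE 0.25, adjusted p = 0.00198). Yars, the tyrosine enzyme, was at 15.6 and 19.8 and then at 79.1 and 90.5 (2.20, SE 0.26, adjusted p = 0.00221). Both genes rose more than 4-fold as a ratio of means, 4.53-fold for Sars and 4.79-fold for Yars. Nars, the asparagine enzyme, was at 46.7 and 50.2 FPKM and then at 176 and 217 (1.99, SE 0.24, adjusted p = 0.00232). Eprs, a single protein that charges both glutamate and proline tRNAs, was at 47.0 and 36.4 and then at 177 and 143 (1.92, SE 0.27, adjusted p = 0.00480). As ratios of means the rises were 4.06-fold for Nars and 3.83-fold for Eprs. Mars, the methionine enzyme, went from 10.9 and 15.7 FPKM to 43.7 and 66.4 (1.96, SE 0.30, adjusted p = 0.00650). Mars shares 261 bases of exon with Ddit3 on the opposite strand, and the counting is not stated to use strand, so part of its signal could not be told from that of Ddit3, which was itself at 14.7 and 14.4 FPKM and then at 68.9 and 57.5.

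Wars (Entrez 22375, chr12:108860030-108894174, minus strand), the tryptophan enzyme, was at 17.2 and 27.9 FPKM at 90 min and at 90.4 and 122 at 6 h in wild type (log2 change 2.21, SE 0.31, adjusted p = 0.00455). Tars, the threonine enzyme, rose by 1.60 (SE 0.25, adjusted p = 0.00685). Kars (Entrez 85305, chr8:111993443-112011323, minus strand), the lysine enzyme used in both compartments, was at 42.2 and 57.1 FPKM and then at 107 and 143 (1.31, SE 0.29, adjusted p = 0.0230). Dars, the aspartate enzyme (0.93, adjusted p = 0.0491), and Iars, the isoleucine enzyme (1.72, SE 0.47, adjusted p = 0.0493), passed by a narrow margin. The Iars libraries at 6 h lay far apart, at 19.8 and 58.7 FPKM. Across genes, the log2 difference between these 2 libraries was related to transcript length (Spearman's rho = -0.591, first minus second library), which bears on long transcripts such as Iars. At 90 min the relation had the same direction, with -0.446 in wild type and -0.166 in GdX-deficient spleen. The part of transcript length in the result was not tested beyond the alternative that removes a length trend.

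The 6 cytosolic enzymes that did not pass had log2 differences of 0.28 to 0.80, all positive. They were both phenylalanine subunits, Farsa (0.77, adjusted p = 0.0855) and Farsb (0.80, adjusted p = 0.0751), with Hars (0.75), Vars (0.75), Rars (0.56) and Qars (0.28, adjusted p = 0.517), the histidine, valine, arginine and glutamine enzymes. Qars was at 32.3 and 31.8 FPKM at 90 min and at 34.8 and 44.0 at 6 h. The most abundant transcript at 90 min, Vars, was therefore not among those called. Enzymes of the multisynthetase complex and enzymes outside it both held calls, beside the 4.39% of all genes: 6 of 8 complex members were called higher (median 1.52) and 8 of 12 others (median 2.06). The 2 structural classes, which differ in the fold of the catalytic domain, also both held calls, with 6 of 9 class I genes (median 1.96) and 7 of 10 class II genes (median 1.46). Eprs, which carries both kinds of charging activity, was left out of the class lists. No test of these groups against each other was made.

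None of the 16 mitochondrial synthetases passed the same limma test in wild type, and 6 of 16 had an unadjusted p under 0.05, beside 28.7% of all genes. Their median log2 difference was 0.547, positive in 15 of 16, and 10 of 16 had no overlap between times in the upward direction, beside the 30.3% of all genes. The group means differed by a factor from 0.727 (Cars2) to 2.38 (Vars2). Rars2, the mitochondrial arginine enzyme, came nearest to the threshold: it was at 14.1 and 11.3 FPKM at 90 min and at 29.3 and 23.1 at 6 h (log2 difference 0.99, SE 0.28, adjusted p = 0.0523). Sars2 (0.96, adjusted p = 0.0579) and Ears2 (0.90, adjusted p = 0.0751) followed. Vars2 had a slightly larger difference, 1.00, from 2.51 and 3.55 FPKM to 5.38 and 9.07, with more spread (SE 0.33, adjusted p = 0.0855). Vars2 shares 1896 exon bases with an antisense entry, Gm20483, so its reads are uncertain. Cars2 alone was lower in both later libraries, at 8.81 and 8.12 FPKM and then at 6.91 and 5.39, a difference that did not pass (adjusted p = 0.467).

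The absence of mitochondrial calls depended on the processing. With quantile normalization 4 of 16 were called higher (Ears2, Nars2, Sars2 and Vars2), with a length and GC trend removed 5 (Ears2, Nars2, Rars2, Sars2 and Vars2), and with a replicate block 4 (Ears2, Rars2, Sars2 and Vars2). Among all genes 591 were called higher with quantile normalization and 1259 with the trend removed, beside 499 (4.39%) as reported. The block raised the count over all genes too, as given in the last section. With a mean of at least 5 FPKM 1 was called (Rars2), with the first wild-type library at 6 h left out 1 (Vars2), and with the second left out 1 (Rars2). The class medians were 1.82 and 0.547 on the log2(FPKM + 1) scale, which shrinks the change of the lower mitochondrial genes more. As ratios of group means the medians were 3.85-fold and 1.68-fold. No p was computed for the difference between the classes.

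**Figure D2:**
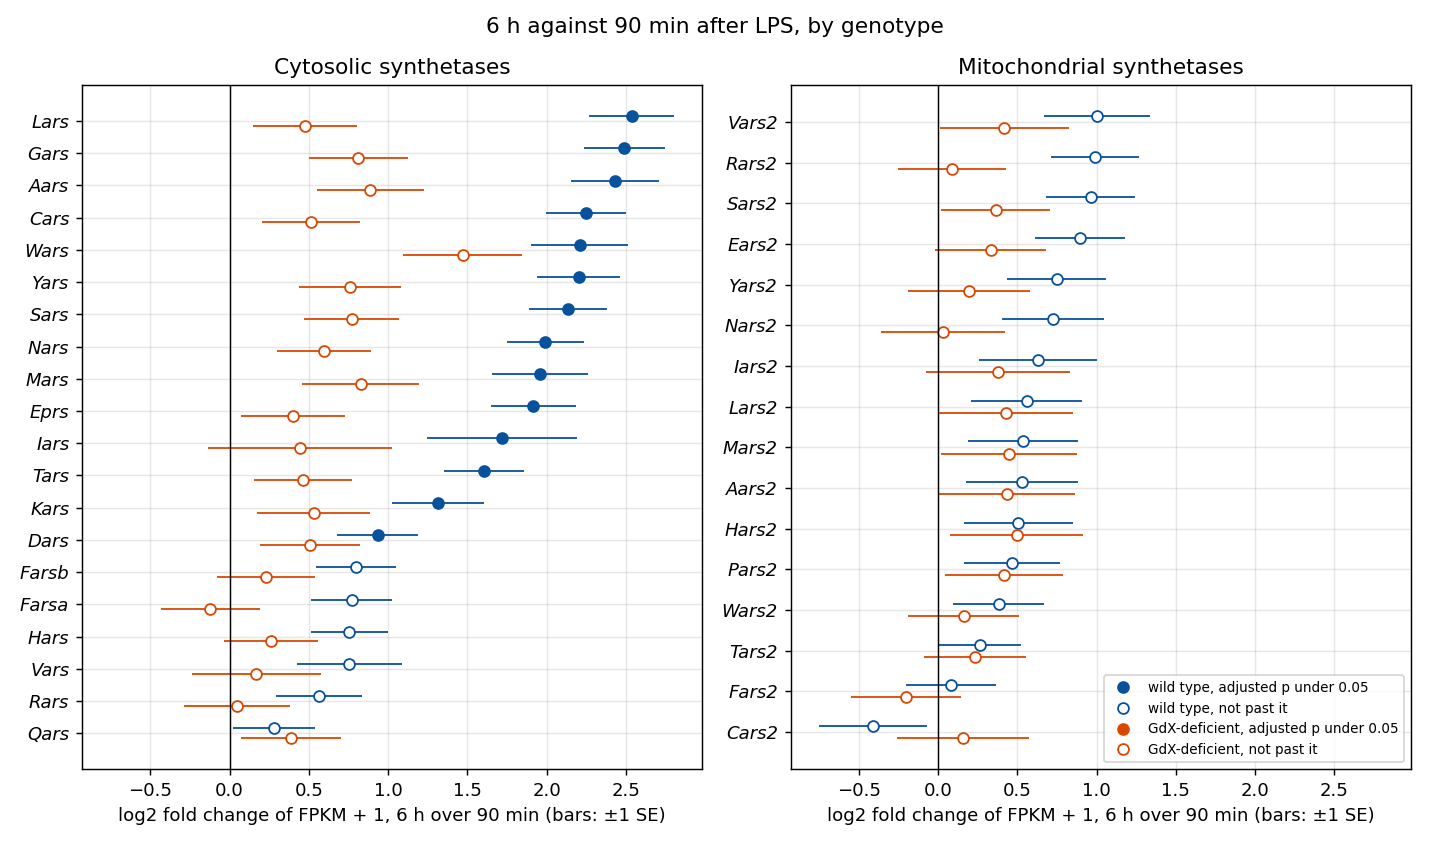
Log2 difference of FPKM + 1 between 6 h and 90 min (x axis) for each synthetase, in wild type (blue) and GdX-deficient spleen (orange); left cytosolic, right mitochondrial; bars are 1 SE of the limma fit and filled points have an adjusted p under 0.05. All 14 filled points are cytosolic and wild type, from 0.93 (Dars) to 2.54 (Lars).

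For 17 pairs of a cytosolic and a mitochondrial enzyme for the same amino acid, the ratio of the levels was above 1 in every library, from 1.11 (Iars to Iars2) to 69.6 (Eprs to Pars2). In wild type both ratios at 6 h exceeded both at 90 min in 14 of 17 pairs. The pairs are not all separate, as Eprs and Fars2 each enter more than once. The share over other gene pairs was not computed. The median log2 change of the ratio was 1.13 in wild type and 0.233 in GdX-deficient spleen, as a description with no test. The cysteine pair changed most: Cars to Cars2 was 1.43 and 1.86 at 90 min and 10.02 and 12.8 at 6 h in wild type. In the GdX-deficient libraries it was 1.91 and 1.11 at 90 min and 1.88 at 6 h, so the later library lay between the earlier ones. Lars to Lars2 was 8.99 and 6.52 and then 37.8 and 20.5 in wild type. The exceptions were the arginine pair, Rars to Rars2, with 4.10 and 4.97 and then 3.01 and 3.52, the valine pair, Vars to Vars2, with 26.8 and 31.3 and then 21.0 and 20.9, and the histidine pair, Hars to Hars2, whose values overlapped between times. Hars and Hars2 lie head to head and share 417 bases of annotated exon, so their reads are uncertain. Cars2 shares 1572 exon bases with Naxd and Iars2 3225 with Rab3gap2, each on the opposite strand, so the ratios with Cars2 and Iars2 are uncertain too. In all, 13 of the 36 members share exon bases with another gene. Nars2 (621 with C230038L03Rik) and Fars2 (501 with Nrn1) are among them, so other ratios carry this limit as well.

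**Figure D3:**
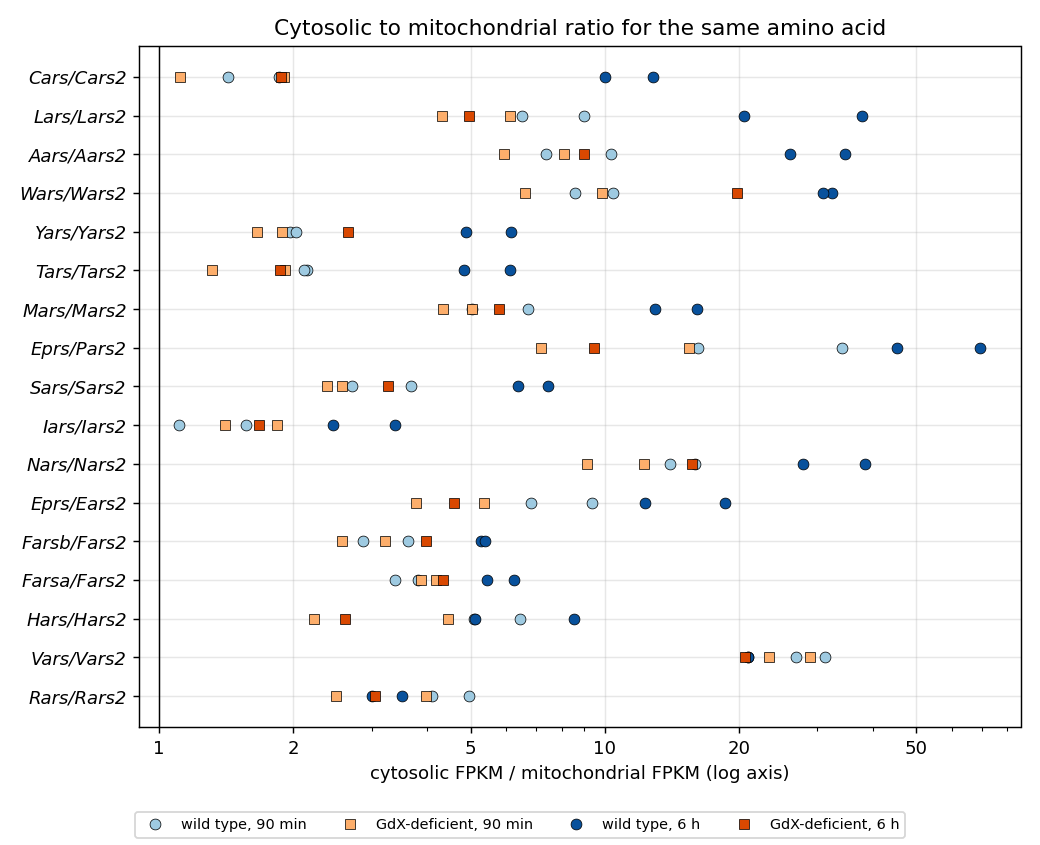
Ratio of the cytosolic to the mitochondrial transcript for the same amino acid in each library (x axis: ratio of FPKM, log axis; circles wild type, squares GdX-deficient; light 90 min, dark 6 h; the line marks 1). For 16 of 17 pairs the dark square of the GdX-deficient library lies below both dark circles, and only the Rars to Rars2 square lies between them. The share over other gene pairs was not computed.

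In GdX-deficient spleen no synthetase of either class was called between 90 min and 6 h, and 0% of all genes were. This comparison sets 1 library against 2, with the spread taken from the other groups. At an unadjusted p under 0.05 there were 5 cytosolic genes, 0 mitochondrial genes and 910 genes in all (8%). The median log2 difference was 0.493 for the cytosolic class and 0.347 for the mitochondrial class, beside 0.252 over all genes. With quantile normalization these were 0.307, 0.0641 and 0.0235. The single library at 6 h was above both at 90 min for 18 of 20 cytosolic and 12 of 16 mitochondrial genes, beside 56.8% of all genes. Wars stood furthest out: it was at 27.5 and 21.9 FPKM at 90 min and at 69.8 at 6 h, a log2 difference of 1.47 (SE 0.38, adjusted p = 0.220). Wars passed in 3 of 14 alternatives: with the first (adjusted p = 0.0254) or second (0.0236) wild-type library at 6 h left out, and with only the 3 libraries compared (0.0163), where the spread comes from the 2 libraries at 90 min alone. Aars (23.1 and 23.0, then 43.6 FPKM) and Mars (15.3 and 16.0, then 28.5) had the next largest differences, 0.89 and 0.83. Lars, with the largest change in wild type, was at 14.8 and 11.7 FPKM and then at 18.7, and Cars was at 14.1 and 15.3 and then at 21.4.

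At 90 min the genotypes did not differ for any synthetase by the limma test, and 0.0176% of all genes were called. At an unadjusted p under 0.05 there was 1 cytosolic gene (Eprs) and no mitochondrial gene, beside 7.58% of all genes. The cytosolic median was -0.185 on the log2 scale, GdX-deficient minus wild type, and the mitochondrial median was 0.226, beside 0.0713 over all genes. Relative to the median of all genes the cytosolic median was at -0.26 as reported and between -0.24 and -0.17 with the 3 rescalings tried, without a test. Its own sign depended on the scaling (0.0149 with equal sums without globin genes, where all genes had 0.250). For 10 of 20 cytosolic genes both GdX-deficient libraries lay below both wild-type libraries, beside 23.4% of all genes, and for 2 (Vars and Iars) above, beside 24.1%. Eprs had the lowest value: 29.0 and 22.5 FPKM against 47.0 and 36.4 in wild type, a log2 difference of -0.67 (SE 0.27, adjusted p = 0.621). Rars was at 46.1 and 29.9 against 57.8 and 55.9 (-0.60, SE 0.27, adjusted p = 0.621). Gars, Lars and Aars, which changed most with time, differed between genotypes here by -0.35, -0.22 and 0.12.

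At 6 h, 8 of 20 cytosolic synthetases were lower in the GdX-deficient library than in the 2 wild-type libraries by the limma test, and none was higher. Of all genes, 1.05% were called lower. The cytosolic median was -1.09 on the log2 scale, while the median over all genes was 0.317. With quantile normalization the cytosolic median was -1.06 and that of all genes -0.0171, so the class lay lower by both scalings, and with equal sums it was -0.821 beside 0.550. The single GdX-deficient library lay below both wild-type libraries for 18 of 20 cytosolic genes (all but Qars and Vars), beside 25.3% of all genes. The wild-type libraries at 6 h are the same ones that enter the comparison with time, so the 2 sets of calls are not separate evidence.

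Lars was at 18.7 FPKM in the GdX-deficient library and at 83.6 and 107 in wild type, a log2 difference of -2.28 (SE 0.33, adjusted p = 0.0148). Eprs was at 34.0 against 177 and 143 (-2.19, SE 0.33, adjusted p = 0.0163), and Gars at 45.9 against 167 and 216 (-2.03, SE 0.31, adjusted p = 0.0174). As a ratio of means, wild type was 5.10-fold higher for Lars, 4.70-fold for Eprs and 4.18-fold for Gars. Nars was at 61.8 FPKM against 176 and 217 (-1.64, adjusted p = 0.0275), and Sars at 37.7 against 125 and 110 (-1.61, adjusted p = 0.0299). Cars (-1.65, adjusted p = 0.0311), Yars (-1.63, adjusted p = 0.0349) and Tars (-1.51, adjusted p = 0.0382) completed the calls. These 8 GdX-deficient values lay between 18.7 and 61.8 FPKM, and the lowest wild-type value among them was 69.1.

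Other cytosolic enzymes did not pass at 6 h. Aars was at 43.6 FPKM against 99.4 and 141 (-1.42, SE 0.34, adjusted p = 0.0510). It passed in 7 of 14 alternatives, among them the 4 that left out a wild-type library (adjusted p from 0.00875 to 0.130 over the 14). Wars, at 69.8 against 90.4 and 122, had a much smaller difference (-0.58, SE 0.38, adjusted p = 0.329), and Kars was at 65.7 against 107 and 143 (-0.90, SE 0.36, adjusted p = 0.139). Mars (-0.90), Dars (-0.59), Hars (-0.80), Iars (-0.78), Rars (-1.12), Farsa (-1.07) and Farsb (-1.07) were lower without passing. Vars (132 against 113 and 190 FPKM) and Qars (42.6 against 34.8 and 44.0) lay within the wild-type range. At an unadjusted p under 0.05 there were 15 cytosolic genes, beside 28.4% of all genes.

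These calls rested on 1 GdX-deficient library and on the processing. With no filter on low values, 0 of the 8 passed, and with libraries rescaled to equal sums without globin genes, 2 did (Lars and Eprs). With a block for the numbers in the sample titles, 13 cytosolic genes passed. That block called 3383 of all genes, beside 331 higher and 119 lower as reported. Leaving out a library gave 8 to 12, the highest count without the second wild-type library at 6 h. Calls over all genes rose with a library left out too, as given in the last section. The direction of the cytosolic differences did not reverse for any called gene in any of these analyses.

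For the mitochondrial synthetases at 6 h the median difference between genotypes was -0.0100. By limma 0 of 16 passed, beside 1.05% of all genes called lower and 2.91% called higher. At an unadjusted p under 0.05 there was 1 (Rars2), beside 28.4% of all genes. The median's own sign depended on the scaling (-0.481 with quantile normalization and 0.246 with equal sums), and the median of all genes moved with it. Relative to all genes it was at -0.33 as reported and between -0.50 and -0.30 with the 3 rescalings tried, as a description with no test. Rars2 was at 12.6 FPKM in the GdX-deficient library against 29.3 and 23.1 in wild type (-0.99, SE 0.34, adjusted p = 0.105). It passed in 3 of 14 alternatives: with the second wild-type library at 6 h left out (adjusted p = 0.0457), with the replicate block (0.0291) and with the length and GC trend removed (0.0481). Cars2 was at 11.4 against 6.91 and 5.39, the largest positive difference (0.80, SE 0.42, adjusted p = 0.238). Hars2, at 15.2 against 8.51 and 13.0, and Pars2, at 3.60 against 2.54 and 3.16, were also above both wild-type libraries. In all, 6 of 16 lay below both wild-type libraries and 3 above both, beside 25.3% and 54.9% of all genes.

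**Figure D4:**
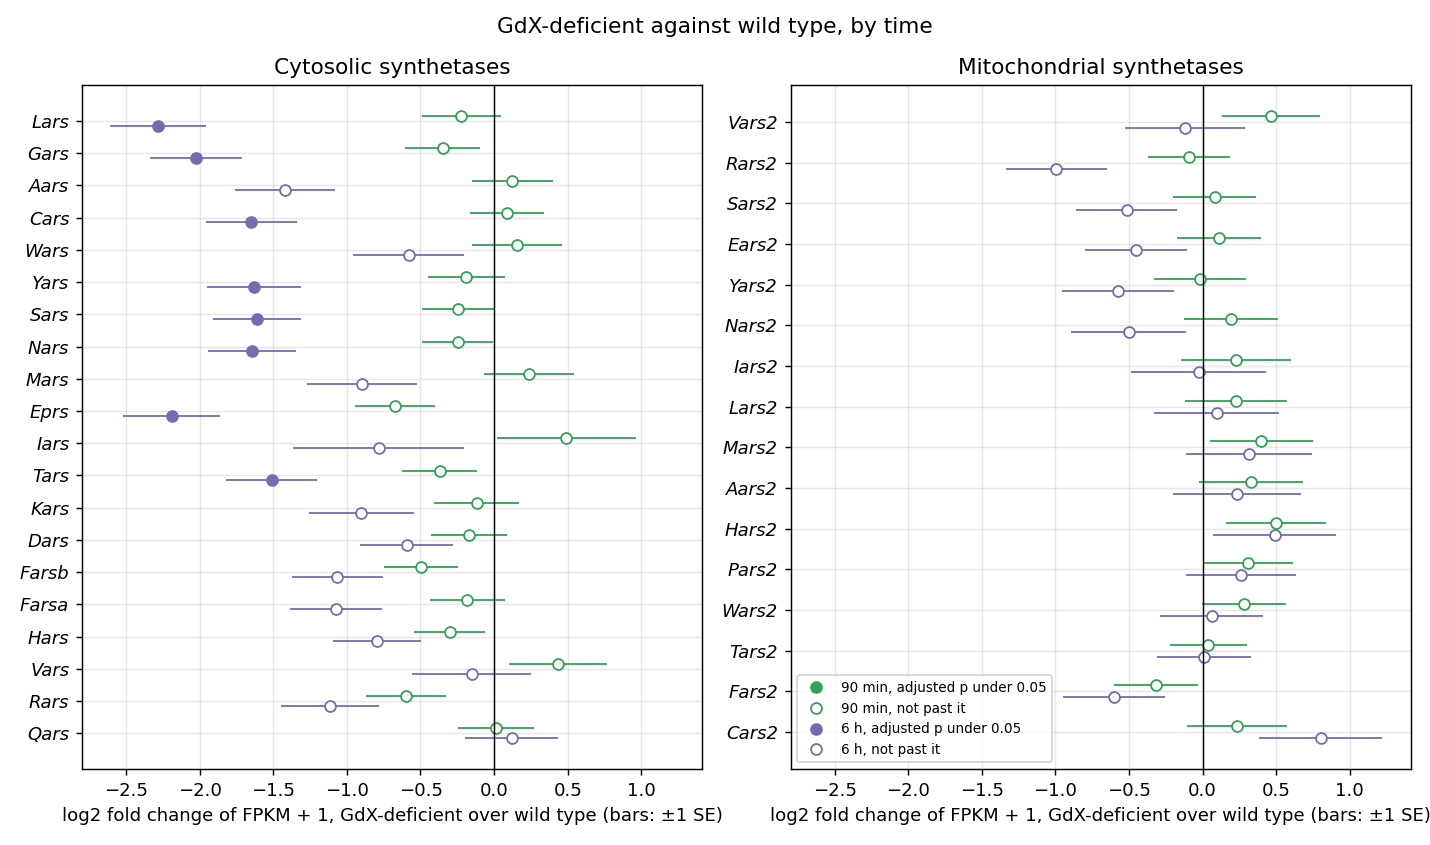
Log2 difference of FPKM + 1 between GdX-deficient and wild-type spleen (x axis) for each synthetase at 90 min (green) and 6 h (purple); left cytosolic, right mitochondrial; bars are 1 SE of the limma fit and filled points have an adjusted p under 0.05. The 8 filled points are cytosolic and at 6 h, from -2.28 (Lars) to -1.51 (Tars), and the mitochondrial points lie on both sides of 0.

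The test of whether the change with time differed between genotypes called no synthetase, and 0.0703% of all genes. The wild-type change exceeded the GdX-deficient one in 19 of 20 cytosolic and in 15 of 16 mitochondrial genes, beside 4072 of all 11378 genes. The median cytosolic excess was 1.14 on the log2 scale, beside -0.192 over all genes. At an unadjusted p under 0.05 there were 10 cytosolic genes and 0 mitochondrial genes, beside 9.98% of all genes. The mitochondrial median was 0.236. Lars had the smallest p (2.06, SE 0.42, adjusted p = 0.113), then Cars (1.74, SE 0.40, adjusted p = 0.149) and Gars (1.68, SE 0.40, adjusted p = 0.164). Qars was the one cytosolic gene with a negative value (-0.11). Wars had 0.74 (SE 0.48, adjusted p = 0.708). Without the first wild-type library at 6 h, Lars (adjusted p = 0.0221) and Gars (adjusted p = 0.0433) passed, and without the second, Lars did (adjusted p = 0.0476). A different time course of the cytosolic synthetases in the 2 genotypes was therefore not established by this test, with 1 library at the decisive time.

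Of 20 scaffold and accessory genes of tRNA charging, 2 were called higher with time in wild type (median 0.424), beside the 4.39% of all genes. Dtd2, which removes wrongly attached alanine from tRNA, was at 3.70 and 3.40 FPKM at 90 min and at 13.5 and 11.04 at 6 h (1.54, adjusted p = 0.0130). Aimp2, a scaffold of the multisynthetase complex, was at 31.6 and 40.1 and then at 91.2 and 77.0 (1.21, adjusted p = 0.0340). The other scaffolds did not pass: Aimp1 was at 68.5 and 45.5 FPKM and then at 131 and 88.1 (0.93, adjusted p = 0.0792), and Eef1e1 at 106 and 81.5 and then at 150 and 106 (0.44, adjusted p = 0.470). Ppa1, a pyrophosphatase that removes the pyrophosphate released by charging, had 1.42 (adjusted p = 0.0700). At 6 h Aimp2 was lower in the GdX-deficient library, at 26.01 FPKM (-1.65, adjusted p = 0.0435), as the 1 call of this list, beside the 1.05% of all genes.

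Of 28 ATF4 amino acid response genes tested, 21 were called higher with time in wild type and none lower (median 2.15), beside the 4.39% of all genes called higher. At 6 h 15 of 28 were called lower in the GdX-deficient library (median -1.53), beside the 1.05% of all genes. Bcat1, Chac1, Cth and Slc7a3 averaged under 1 FPKM outside the wild-type libraries at 6 h and entered the test only through these, so they had to differ. Of the other 24 genes, 17 were called higher with time (median 1.92) and 11 lower in the GdX-deficient library at 6 h (median -1.48). Trib3, a pseudokinase induced by ATF4, was at 0.63 and 0.70 FPKM at 90 min and at 51.1 and 52.8 at 6 h in wild type (4.99, SE 0.27, adjusted p = 0.000147). In GdX-deficient spleen it was at 0.51 and 0.72 and then at 3.27. Slc7a3, a cationic amino acid transporter, and Cth, an enzyme of cysteine synthesis, both from that set of low genes, had log2 differences of 3.53 and 3.12. Atf4 itself rose by 1.04 (adjusted p = 0.0379). Of a list of 7 genes of eIF2alpha, its kinases and its phosphatase subunits, 0 were called higher and 1 lower (6.32% of all genes), Ppp1r15a, the inducible phosphatase subunit (-1.48, adjusted p = 0.0342). Whether the synthetases and the ATF4 genes share a cause was not tested.

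Of 13 interferon gamma response genes tested, 2 rose with time in wild type, beside the 4.39% of all genes. Cxcl9, a chemokine, was at 69.2 and 84.8 FPKM and then at 200 and 223 (1.45, adjusted p = 0.00873), and Gbp2, a guanylate-binding protein, at 74.9 and 102 and then at 233 and 345 (1.69, adjusted p = 0.0122). In GdX-deficient spleen Gbp2 was at 123 and 84.8 FPKM and then at 205. The list's median was 0.372, and at 6 h it held 1 call higher in the GdX-deficient library (Ciita, 2.79) and 1 lower (Cxcl10, -1.90), beside 2.91% and 1.05% of all genes. The mitochondrial translation list, which holds translation factors and ribosomal proteins of the organelle and its transcription genes Tfam and Polrmt, gave 0 calls of 16 by limma with time in wild type, 7 with an unadjusted p under 0.05 (28.7% of all genes) and a median of 0.612.

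Of the promoters that hold TGATGNAA on either strand, those of Aars, Gars and Tars were printed above. The matches in Iars and Yars lie just after the start, and Aars has a further one there. With time in wild type, the 5 genes with a match had log2 changes of 1.60 to 2.49 (median 2.20), the 8 without a match 0.28 to 2.13 (median 1.12), and the 7 with no entry a median of 1.99. The ranges of the genes with and without a match overlap: Sars and Mars rose by 2.13 and 1.96 with no match in the window. A match is a description of these letters and not a measured binding site, and the genes were not tested against each other on it.

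Cell type markers moved in the same libraries as the cytosolic synthetases. The summed FPKM of the 8 B cell markers was 1643 and 1562 in wild type at 90 min, 529 and 596 in wild type at 6 h, and 1941 in the GdX-deficient library at 6 h. The T cell sum (7 of 8 markers in the table) was 379 and 328, then 162 and 152, and 296 in that GdX-deficient library. Red pulp macrophage markers summed to 976 and 990, then 588 and 465, and 835. The wild-type libraries at 6 h, in which the cytosolic synthetases were highest, thus had the lowest sums of all 3 lists, and the GdX-deficient library at 6 h did not. With time in wild type 3 of 8 B cell, 4 of 7 T cell, 4 of 7 red pulp macrophage, 5 of 8 erythroid, 2 of 7 neutrophil and 1 of 5 plasma cell markers were called lower, and none higher, beside 6.32% of all genes called lower. Among them were Cd79a, Fcer2a and Cr2 of B cells, Cd3g, Lck, Cd4 and Cd3e of T cells, Vcam1, Cd5l, Slc40a1 and Spic of red pulp macrophages, Elane and Mpo of neutrophils and Mzb1 of plasma cells. Some markers went the other way without a call. Positive were 3 of 7 neutrophil, 1 of 8 B cell (Cd22, 0.57) and 1 of 5 plasma cell markers (Sdc1, 0.76). At 6 h the GdX-deficient library was higher in Cd79a and Cr2, in Cd4, and in Cd5l, Slc40a1 and Adgre1, beside 2.91% of all genes called higher. Neutrophil markers ranged from 680 to 4635 over the libraries, with the highest sum in a GdX-deficient library at 90 min. The cycling cell sum was 299 to 382 in all libraries, with 1 marker called higher (Mcm2) and 1 lower (Mki67) in wild type. No marker of the B cell, T cell, macrophage, neutrophil, erythroid or plasma cell lists found in the table was at 0 in any library, so the spleen label is met. Pancreas markers summed to at most 8.47 FPKM, with 2 to 7 of the genes found at 0, and fat tissue markers to at most 51.0. The part of cell composition in the synthetase results was not tested.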

How the data were processed

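RNA-seq of 7 mouse spleen libraries was analysed from 1 table of FPKM values (2 decimals) deposited by the authors; HISAT, HISAT2 2.0.4, Bowtie2, RSEM and build GRCm38.p5 are named, without roles, per the submitters' processing notes. Poly(A) selection or rRNA depletion preceded BGISEQ-500 sequencing, per the labels' protocols. The mice are separate per the labels. Raw counts were not used. The 11378 genes averaging 1 FPKM or more entered a limma fit (version 3.58.1, R 4.3.3) on log2(FPKM + 1), which understates changes of low genes, with 4 group means, a trended empirical Bayes spread, two-sided, with Benjamini-Hochberg adjustment and a threshold of 0.05. The single GdX-deficient library at 6 h was assumed to vary like the others. Depth was estimated from 177 to 210 low genes per library, as the depth at which their values best matched whole numbers of fragments. A match lay within 0.05 of a whole number, or within the rounding of the FPKM value where that was wider. At the chosen depth 45.1% to 54.0% of values matched, against 15.3% to 16.9% by that tolerance alone. The depth was chosen to make this excess largest, so the excess is no test of it. No count test was run.

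Exon overlaps come from GENCODE annotation of GRCm38. Values in every library were given for up to 10 called members with the smallest p-values and for Wars, Aars, Kars and Gars; for pathway lists up to 3 genes by p-value were named. Others named (Ddit3, Aimp1, Eef1e1, Atf4 marker genes and the members set out as exceptions) were chosen after their values were seen. Members and lists were chosen with earlier results of these data known. Alternatives were another pseudocount, other filters, 3 rescalings, a replicate block, a fit of the compared libraries alone, and each library left out. The 3 rescalings were quantile normalization, equal sums without globin genes and removal of a length and GC trend. The test script was checked on simulated data.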

Additional observations from a re-analysis of the deposited data

Results flagged for a closer look

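No synthetase met a criterion for a closer look. Among the pathway and marker lists, 5 genes had a wild-type change with time that differed from the GdX-deficient change by the interaction test of limma, all resting on the 1 GdX-deficient library at 6 h. Slc7a3 differed by 3.62 on the log2 scale (SE 0.38, adjusted p = 0.0422): it was at 0.27 and 0.20 FPKM and then at 12.8 and 13.7 in wild type, and at 0.37 and 0.42 and then at 0.31 in GdX-deficient spleen. Trib3 differed by 3.59 (SE 0.43, adjusted p = 0.0430), Cth by 3.00 (SE 0.37, adjusted p = 0.0430) and Bcat1, a branched-chain amino acid transaminase, by 2.73 (SE 0.37, adjusted p = 0.0488). Cd5l, a macrophage gene, differed the other way, by -3.15 (adjusted p = 0.0430): it was at 33.7 and 33.1 FPKM and then at 8.36 and 6.37 in wild type, and at 23.5 and 22.1 and then at 50.1 in GdX-deficient spleen. Slc7a3, Cth and Bcat1 passed the filter on low values only through the wild-type libraries at 6 h, in which they are high, so their differences are in part a result of that choice and support nothing. In all, 8 genes passed this test, and 0 did with a pseudocount of 0.1, with a mean of at least 5 FPKM or with equal sums.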

How the results depend on the processing

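No called value changed sign. Some class medians did, as the median of all genes moved too: for genotype at 90 min the cytosolic one went from -0.185 to 0.0149 with equal sums (all genes 0.0713 to 0.250), at 6 h the mitochondrial one from -0.0100 to 0.246 (all genes 0.317 to 0.550), and for time in GdX-deficient spleen the mitochondrial one from 0.347 to -0.00767 with the length and GC trend removed (all genes 0.252 to 0.0263). Relative to all genes the first 2 kept their sign under the 3 rescalings and the last did not (0.0955 to -0.0339). With time in wild type, 1218 genes were called; the count was 635 with no filter, 708 with equal sums without globin genes, 2345 with the replicate block, 2629 with the length and GC trend removed, and 455 (without the first wild-type library at 90 min) to 1755 with 1 library left out (522 without the second at 90 min). The 14 cytosolic calls became 11 to 16, and the 0 mitochondrial calls 1 with a mean of at least 5 FPKM, 4 with quantile normalization, 4 with the block, 5 with the trend removed and 0 to 1 with a library left out. For genotype at 90 min, 2 calls became 181 with only the compared libraries, 0 with the trend removed and 2 to 169 with a library left out (169 without the second wild-type library at 6 h, 158 without the first). For genotype at 6 h, 450 calls became 90 with no filter, 233 with at least 5 FPKM, 270 with quantile normalization, 255 with equal sums, 3383 with the block, 885 with only the compared libraries, 1131 with the trend removed and 624 to 3010 with a library left out (3010 without the second wild-type library at 6 h); 8 cytosolic calls became 0 with no filter, 2 with equal sums, 13 with the block and 8 to 12 with a library left out, and 0 mitochondrial calls became 1 with the block, 1 with the trend removed and 0 to 1. For time in GdX-deficient spleen, 0 calls became 22 with no filter, 37 with the block, 251 with only the compared libraries (1 cytosolic) and 0 to 233 with a library left out (0 to 1 cytosolic). The interaction's 8 calls became 0 with a pseudocount of 0.1, 3 with no filter, 0 with at least 5 FPKM, 4 with quantile normalization, 0 with equal sums, 80 with the block, 19 with the trend removed and 0 to 225 with a library left out (0 to 2 cytosolic). The cause was not tested. The change of the class ratio, 0.915 on the log2 scale, was 0.792 to 1.02. Leaving out the GdX-deficient library at 6 h gives no value for the 3 comparisons that use it. The replicate numbers were not taken as pairs: with 2 numbers, the differences between replicates correlated across genes at 0.768 for the wild-type times, -0.120 for the genotypes at 90 min and 0.0797 for wild type at 6 h with GdX-deficient at 90 min; crossed numbers at 90 min, tried after seeing the data, gave 2 calls. Quantile normalization moved the median of all genes at 6 h between genotypes from 0.317 to -0.0171 and equal sums to 0.550; the 450 calls there split into 331 higher and 119 lower, against 166 and 104 with quantile normalization, 216 and 39 with equal sums and 580 and 551 with the trend removed. With time in wild type 499 higher and 719 lower became 191 and 517 with equal sums. Depth limits the mitochondrial genes most, down to 71 estimated fragments for Pars2.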
